A study of Mus musculus with 8 samples.

Results

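A set of 33 genes that give the pancreatic islet its identity and its secretory machinery was followed in the pancreata of NOD mice. The set was defined by gene symbol, and all 33 genes had at least 1 of the 52 probes read for them, among 21597 genes with a symbol on the array. A gene with several probes was represented by its brightest probe, taking the log2 signals of red and green together. By role, the set held 12 transcription factors, 4 genes of glucose entry and excitability, 3 hormone receptors, 5 genes of prohormone processing, 4 granule proteins, 2 genes of exocytosis and the cell surface and 3 secreted peptides or carrier proteins.

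Gene expression had been measured on 2-color microarrays in whole pancreas of 8 female NOD (NOD/LtJ) mice at 12 weeks of age, each on an array of its own. The NOD strain develops spontaneous autoimmune diabetes. The reference on every array was the same pool of pancreas RNA from 8 age-matched mice of the congenic NOD.B10 strain (NOD.B10Sn-H2b/J), which shares the NOD background, carries another H2 haplotype and is not prone to diabetes. NOD RNA was always labelled with Cy5 (red) and the pool with Cy3 (green). Since the dyes were never exchanged and the pool is 1 sample, dye, strain and pool cannot be told apart, and the p-values below measure only the spread between the 8 NOD mice. The arrays lay on 2 slides, with mice 1 to 4 on slide 1 and mice 5 to 8 on slide 2. The labels describe the mice as bred in house and the methods as purchased.

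The islets of Langerhans are small endocrine clusters scattered through the exocrine pancreas, so their transcripts are a minor share of whole-pancreas RNA. In β-cells, glucose enters through a glucose transporter, its metabolism closes an ATP-sensitive potassium channel, and the resulting calcium entry releases insulin from dense-core granules. The hormones are cut from longer precursors by prohormone convertases inside granules that are rich in granins, while a network of transcription factors keeps each endocrine cell type distinct.

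Each value below is the log2 ratio of 1 NOD mouse to the pool, so that a value below 0 means less signal in the NOD mouse. A ratio of exactly 0 can also be what the scanning software gave where neither dye had signal above background, so it is not read as equal expression. A gene was called at a change of at least 2-fold with a limma adjusted p under 0.01, from a fit over all 28105 probes tested. The NOD signal was the weaker one. Depending on the array, between 21.6% and 35.3% of spots were well above background in red, against 57.6% to 60.7% in green, and the scanning software had written a stand-in value for red in 42.9% to 54.0% of spots. A stand-in replaces a signal that does not rise above background, so a ratio built on one depends on the background as well as on the gene. Red was well above background on at least 4 arrays for 16 of the 33 genes. These were Nkx6-1, Foxa2, Irx1, Abcc8, Prlr, Pcsk1, Pcsk2, Pcsk1n, Cpe, Scg5, Scg3, Chgb, Resp18, Tmem27, Gc and Ttr. Another 14 genes reached that level in green but not in red, and Neurod1, Pax4 and Insm1 reached it in neither dye. Mafa and Insm1 did not pass the signal filter, which left 31 genes tested.

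Several genes of the secretory granule are classical targets of cyclic AMP signalling, and the sequences shown here are those promoters of its granule and processing genes that carry the palindromic cyclic AMP response element. RefSeq promoters (GRCm38.p6, 250 bases before to 50 after the transcription start) were matched by symbol to 22 of the 33 genes. The 8 letters TGACGTCA, which read the same on both strands, occurred in the promoters of 4 genes, namely Chgb, Scg2, Pcsk1 and Pax6, beside 1.79% of all 32851 promoters. The promoters of the granins Chgb (chr2:132781392-132781691, plus strand) and Scg2 (chr1:79439977-79440276, minus strand) and of the convertase Pcsk1 (chr13:75089607-75089906, plus strand) are printed 5′ to 3′ with the element in capitals. A match is a description of the letters and not evidence of binding.
Chgb: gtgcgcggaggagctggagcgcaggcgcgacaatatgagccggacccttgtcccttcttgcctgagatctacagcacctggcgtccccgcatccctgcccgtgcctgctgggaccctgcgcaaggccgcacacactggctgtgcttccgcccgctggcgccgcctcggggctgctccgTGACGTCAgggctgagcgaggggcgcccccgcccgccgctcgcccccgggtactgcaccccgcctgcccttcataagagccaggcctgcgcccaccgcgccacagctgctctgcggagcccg
Scg2: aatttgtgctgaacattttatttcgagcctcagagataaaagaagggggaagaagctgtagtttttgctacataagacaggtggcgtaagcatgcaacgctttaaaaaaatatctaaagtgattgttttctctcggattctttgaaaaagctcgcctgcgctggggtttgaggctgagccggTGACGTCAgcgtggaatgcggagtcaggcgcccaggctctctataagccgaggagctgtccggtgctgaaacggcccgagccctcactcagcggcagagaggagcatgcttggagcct
Pcsk1: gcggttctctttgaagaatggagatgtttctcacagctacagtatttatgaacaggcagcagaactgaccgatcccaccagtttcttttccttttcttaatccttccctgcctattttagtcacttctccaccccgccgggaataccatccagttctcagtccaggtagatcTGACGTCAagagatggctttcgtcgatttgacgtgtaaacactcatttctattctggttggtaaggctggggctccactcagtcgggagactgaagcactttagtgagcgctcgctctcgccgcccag
The element began 72 bases before the start in Chgb, 68 in Scg2, 78 in Pcsk1 and 76 in Pax6, a transcription factor whose promoter is not printed. In the arrays, the mean ratio was -0.17 for Chgb, -0.37 for Scg2 and -0.40 for Pcsk1, and none of them passed an adjusted p of 0.01 in limma.

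Across the whole set, ratios lay mostly below 0, but few genes passed the test. The mean ratio was below 0 in 26 genes, above 0 in 6 and exactly 0 in 1. No gene was called higher, beside 0.391% of all 18396 genes tested, and only Trpm5 was called lower, beside 1.3% of all genes. At an adjusted p under 0.01 without regard to fold, limma found 3 genes lower (Foxa2, Isl1 and Trpm5), beside 4.83% of all genes, and 1 higher (Irx1), beside 3.31%. At an adjusted p under 0.05, 11 genes were lower, beside 14.4% of all genes, and 1 was higher, beside 7.01%. Among the 31 genes tested, 16 had an unadjusted p under 0.05 in limma. Of these, 15 were lower, beside 25.1% of all genes, and 1 was higher, beside 10.9%. The plain one-sample statistic also called 0 higher and Trpm5 lower. Ratios below 0 were also common elsewhere on the arrays, with 59% of all genes tested having a mean below 0.

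The 16 genes with red well above background had a median ratio of -0.46, beside -0.06 over the 9544 genes of the array that met the same condition. Of these 16 genes, 13 had a mean below 0, beside 57.5% of such genes on the array. At an adjusted p under 0.01, limma found 1 of the 16 lower (Foxa2), beside 5.55% of such genes, and 1 higher (Irx1), beside 6.11%. All 8 mice were below 0 for 4 of the 16 (Foxa2, Pcsk2, Pcsk1n and Tmem27), beside 11.8%, and all 8 were above 0 for Irx1, beside 9.37%. The 14 genes detected in green but not in red are a class that by its making leans below 0, since the pool had to be above background and the NOD mice not, so their values are a description. They had a median of -0.66, beside -0.38 over the 5624 genes of that kind, and 12 of the 14 had a mean below 0, beside 82.1%. Of these 14 genes, 1 was called lower (Trpm5), beside 3.89%, and all 8 mice were below 0 for 3 (Mafa, Isl1 and Trpm5), beside 12.9%. In whole pancreas, fewer islet cells and less RNA per islet cell cannot be told apart.

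**Figure D1:**
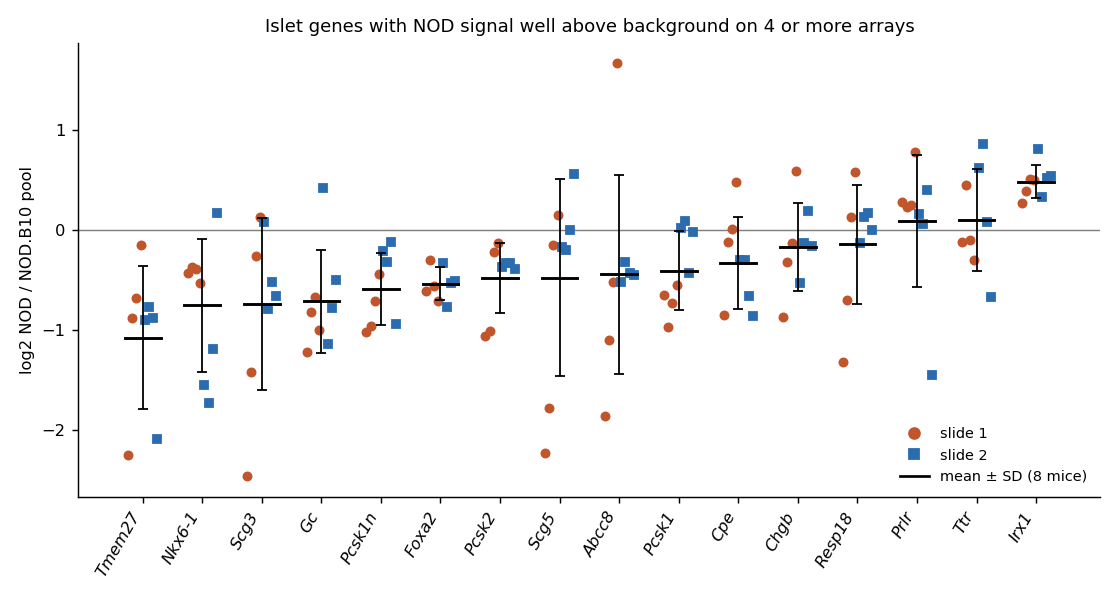
Log2 ratio of NOD to the NOD.B10 pool (vertical axis) for the 16 islet genes with NOD signal well above background on at least 4 arrays, with 1 point a mouse, circles for slide 1, squares for slide 2, and a bar and whiskers for the mean and SD of 8 mice. All 8 points lie below 0 for Tmem27, Pcsk1n, Foxa2 and Pcsk2 and above 0 for Irx1, while Scg3, Scg5 and Abcc8 have the widest spread.

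Foxa2 encodes a forkhead pioneer factor of the endoderm that is active in islet, duct and other endodermal cells. Its ratio ran from -0.77 to -0.30 with a median of -0.54, which corresponds to 68.7% of the pool. All 8 mice were below the pool and the values of the slides overlapped. The mean was -0.54 ± 0.16 (SD, n = 8; 95% interval -0.67 to -0.40), with a limma adjusted p of 0.0015 and an exact two-sided sign-flip permutation p of 0.00781, the smallest that 8 mice allow. It stayed below 0 under every other processing tried, with -0.67 after normexp background correction and -0.81 after median centering. With mice 1 and 2 left out together the mean was -0.57 and the limma adjusted p 0.0111.

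Irx1, an Iroquois homeobox factor found in glucagon-producing α-cells, was the 1 gene that rose. Its ratio lay between 0.27 and 0.81 with a median of 0.51, or 142% of the pool. The mean was 0.49 ± 0.16 (SD, n = 8), with a limma adjusted p of 0.00217 and an exact sign-flip permutation p of 0.00781. Every mouse was above the pool and red was well above background on 6 arrays. On this probe green, the same pool on every array, ran from 124 to 406, and red from 178 to 713. The rise rested on 1 probe, since the second Irx1 probe had stand-in values on all 8 arrays, and after normexp correction the mean was 0.14 with a limma adjusted p of 0.28. Without mice 1 and 2 the mean was 0.54 and the limma adjusted p 0.0126. Its neighbour of the same family, Irx2, also an α-cell factor, averaged 0.06 ± 0.49 (SD, n = 8) with 3 mice below 0.

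Isl1, a LIM homeodomain factor of all islet endocrine cells, lay below the pool in all 8 mice, from -1.004 to -0.07 with a median of -0.73. The mean was -0.67 ± 0.35 (SD, n = 8) with a limma adjusted p of 0.0088. Red was well above background on 0 arrays for Isl1, and a stand-in was used on 4. The mean was -0.023 after normexp correction and 0.047 after median centering, and leaving out any of 7 of the 8 mice took the limma adjusted p above 0.01, up to 0.0264. The mean itself stayed between -0.75 and -0.62 with 1 mouse left out.

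Pdx1, Nkx6-1, Nkx2-2 and Mafa, factors that maintain β-cell identity, had means between -0.76 and -0.69, and none passed an adjusted p of 0.01. Pdx1 ranged from -1.40 to 0.13 with a median of -0.70 and was below 0 in 7 mice (limma adjusted p = 0.029). Nkx6-1 ranged from -1.73 to 0.18 with a median of -0.48 (limma adjusted p = 0.053). Its lowest values were those of mice 5, 6 and 7, at -1.55, -1.73 and -1.19, and mouse 8 on the same slide was the only mouse above 0. Nkx2-2 had a wide spread, from -1.82 to 1.05 (limma adjusted p = 0.116). Red was well above background on 1 array for Pdx1, on 0 for Nkx2-2 and on 4 for Nkx6-1. Pdx1, Nkx2-2 and Mafa belong to the genes detected in green but not in red, a class that leans below 0. After normexp correction the means were -0.10 for Pdx1, -0.07 for Nkx2-2 and -0.25 for Nkx6-1. Mafa, the activator of insulin transcription, was below 0 in all 8 mice, from -1.17 to -0.02, but it did not pass the signal filter and was not tested, and it had red stand-ins on 7 arrays.

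Pax6, which is needed for hormone gene expression in all endocrine lineages, averaged -0.31 ± 0.69 (SD, n = 8) on its brightest probe. The other Pax6 probes averaged -0.50 and 0.43, the last with red stand-ins on 7 arrays. Neurod1, Pax4 and Insm1 are endocrine differentiation factors. Neurod1 had a ratio of exactly 0 in all 8 mice and a red stand-in on all 8 arrays, and Pax4 was at 0 in 6 mice. Insm1 averaged 0.02 with a range from -0.72 to 0.95. None of these 3 genes was well above background in either dye on as many as 4 arrays, so no direction is read from their ratios, and Insm1 was not tested. Neurod1 and Pax4 took other values when the ratio was made in other ways, with Neurod1 at 1.64 from processed signals and 2.64 after median centering.

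Among the genes of glucose entry and excitability, all 4 means were below 0, beside 59% of all genes tested and 82.1% of genes seen in green but not in red, a kind that holds 3 of the 4. Trpm5 was called lower, beside 1.3% of all genes. Trpm5, a calcium-activated cation channel of β-cells and of tuft cells, averaged -1.14 ± 0.37 (SD, n = 8; limma adjusted p = 0.00158). The individual ratios ran from -1.59 to -0.42 with a median of -1.13, and all 8 mice were below the pool. Red had a stand-in on all 8 arrays, at a mean signal of 27.3 against 59.5 in green, so the ratio sets the pool against the background level of the NOD channel and gives no measured fold. The call was lost after normexp correction (-0.048, limma adjusted p = 0.408) and after median centering (-0.43, limma adjusted p = 0.126). Beside it, the tuft cell markers Pou2f3, Dclk1 and Gfi1b were well above background in red on 0 arrays, Plcg2 on 8 arrays, with a mean of 0.06, and Plcb2 on 6, with a mean of -0.60. Il25 and Avil did not pass the signal filter. Limma called 0 of the 5 tuft cell markers tested, with 1 lower at an unadjusted p under 0.05, beside 25.1% of all genes. The part of tuft cells in the Trpm5 value was not tested.

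Abcc8 and Kcnj11 encode the subunits of the ATP-sensitive potassium channel, the sulfonylurea receptor and the pore, and their probes lay next to each other on chromosome 7. Abcc8, well above background in red on all 8 arrays, ranged from -1.86 to 1.67 with a median of -0.49. Mice 1 and 2 had the lowest ratios, -1.86 and -1.10, whereas mouse 4, on the same slide, was the only mouse above 0. The mean was -0.44 ± 0.99 (SD, n = 8) with a limma adjusted p of 0.403. Without mouse 4 it was -0.74 (limma adjusted p = 0.0553) and without mouse 1 it was -0.24. The second Abcc8 probe averaged 0.01, with red well above background on 0 arrays and stand-ins on 5. Kcnj11 averaged -0.57 ± 0.44 (SD, n = 8; limma adjusted p = 0.0345) with red stand-ins on 6 arrays. Slc2a2, the glucose transporter GLUT2, averaged -0.68 ± 0.95 (SD, n = 8), and its second probe averaged 0.025, so its probes did not point the same way.

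The receptors gave no gene that passed the test. Glp1r, the receptor for the incretin GLP-1, had the highest mean of the genes with weak red signal, 0.44 ± 0.83 (SD, n = 8; limma adjusted p = 0.317). Its ratio ran from -1.09 to 1.40 with a median of 0.76, and 6 mice were above the pool, while mice 7 and 8 were below it. Glp1r was the only gene of the set on chromosome 17, which also carries the H2 genes that distinguish the strains. On the build of the files (mm8), its probe lay 2.89 Mb before the first H2 probe, that of H2-Ke2, and the extent of the congenic segment was not analysed here. Gipr, the receptor for the other incretin, GIP, averaged -0.24 with red stand-ins on 7 arrays.

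Prlr, the prolactin receptor, through which β-cells respond in pregnancy, gave different values from different probes. The brightest probe, with red well above background on 7 arrays, averaged 0.09 ± 0.66 (SD, n = 8), with 7 mice between 0.06 and 0.78 and mouse 8 at -1.45. The second probe averaged -0.89 ± 0.59 (SD, n = 8) and was below 0 in all 8 mice, with a limma adjusted p of 0.0204. The third averaged -0.73 and was not tested. Red was well above background on 0 arrays for both of these probes, with stand-ins on 2 arrays for the second and on all 8 for the third.

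For prohormone processing, all 5 genes had a mean below 0, between -0.59 and -0.32, and red well above background on at least 4 arrays. Of well measured genes on the array, 57.5% had a mean below 0. None of the 5 passed an adjusted p of 0.01, and 2 were lower at 0.05, beside 14.4% of all genes. Pcsk1n (proSAAS), an inhibitor of the convertase PC1/3, ranged from -1.02 to -0.12 with a median of -0.57, which is 67.3% of the pool. All 8 mice were below 0, and the mean of -0.59 ± 0.36 (SD, n = 8) had a limma adjusted p of 0.0158. Its second probe, with red well above background on 3 arrays, averaged -0.29 with 4 mice on either side of 0 (limma adjusted p = 0.358). With the median over probes the limma adjusted p was 0.135. Pcsk2, which encodes the convertase PC2, ranged from -1.06 to -0.13 with a median of -0.35. Mice 1 and 2, at -1.06 and -1.003, stood apart from the other 6 mice, which lay between -0.38 and -0.13. The mean of Pcsk2 was -0.48 ± 0.35 (SD, n = 8; limma adjusted p = 0.03), and -0.29 over mice 3 to 8. The second Pcsk2 probe, with red well above background on 3 arrays, averaged -0.38 ± 0.75 (SD, n = 8; limma adjusted p = 0.337). On that probe 2 mice were above 0. The median over the Pcsk2 probes averaged -0.43 with a limma adjusted p of 0.119.

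Pcsk1, which encodes PC1/3, was the 1 gene of the 16 whose slides did not overlap, beside 21.6% of such genes on the array. On slide 1 the 4 mice averaged -0.72 ± 0.18 (SD, n = 4), and on slide 2 they averaged -0.08 ± 0.24 (SD, n = 4). The exact two-sided permutation p of 0.0286 is the smallest that 4 against 4 mice allow, and the limma adjusted p of the slide difference was 0.0682. Over both slides the mean of Pcsk1 was -0.40 ± 0.39 (SD, n = 8; limma adjusted p = 0.0711), and with slide as a covariate the limma adjusted p was 0.00938. Cpe, the carboxypeptidase that trims the cut peptides, averaged -0.32 ± 0.46 (SD, n = 8) on the brightest probe and -0.27 on the other, and both probes were well above background on every array. Scg5, the chaperone 7B2 that PC2 needs to mature, averaged -0.48 ± 0.98 (SD, n = 8). Mice 1 and 2 carried that value, at -2.23 and -1.78, while the other 6 mice lay between -0.20 and 0.56 and averaged 0.033. For Scg5, red was well above background on 6 arrays and ran from 109 to 610, with stand-ins on 0 arrays.

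All 4 granule proteins had a mean below 0, beside 59% of all genes tested. None of the 4 passed an adjusted p of 0.05 in limma, with 1 lower at an unadjusted p under 0.05, beside 25.1% of all genes. Scg3, a granin that anchors granule cargo to the membrane, ranged from -2.46 to 0.13 with a median of -0.59. Mouse 1, at -2.46, and mouse 2, at -1.42, were the lowest, and the mean was -0.74 ± 0.86 (SD, n = 8; limma adjusted p = 0.116). For Scg3, red was well above background on 5 arrays and ran from 97 to 672, with stand-ins on 0 arrays. Resp18, a protein of neuroendocrine granules, was at -1.31 and -0.70 in mice 1 and 2 and between -0.12 and 0.58 in the other 6, so that its mean changed from -0.14 over 8 mice to 0.15 over mice 3 to 8. Chgb (chromogranin B) averaged -0.17 ± 0.44 (SD, n = 8), or -0.28 to -0.07 with 1 mouse left out, and again mouse 1 was the lowest, at -0.87. Scg2 (secretogranin II), for which red was well above background on 0 arrays, ranged from -1.40 to 1.21 and averaged -0.37, or -0.59 to -0.22 with 1 mouse left out.

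Tmem27 (collectrin), a membrane protein that β-cells cleave and shed, had the lowest mean of the 16 genes. Its ratio ran from -2.24 to -0.15 with a median of -0.88, or 54.5% of the pool. Mice 1 and 8 were far lower than the rest, at -2.24 and -2.09, and all 8 were below 0. The mean of -1.07 ± 0.72 (SD, n = 8), 2.1-fold lower, missed the call with a limma adjusted p of 0.0208. When only probes with red well above background were tested, the adjusted p was 0.00584 and Tmem27 was called lower. Snap25, a SNARE protein of vesicle fusion, averaged -0.66 ± 0.51 (SD, n = 8; limma adjusted p = 0.0329) with red stand-ins on 5 arrays, and its other probes averaged 0.10 and -0.35.

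Ucn3 (urocortin 3), a peptide of mature β-cells, averaged -1.08 ± 0.67 (SD, n = 8; limma adjusted p = 0.0162). Only mouse 5, at 0.39, was above the pool, and without it the mean was -1.29 with a limma adjusted p of 0.00277. Leaving out any other single mouse gave means of at most -0.99 and limma adjusted p up to 0.0434. Red stand-ins were used on 7 arrays for Ucn3. Gc, the vitamin D binding protein, which α-cells express besides the liver, ranged from -1.22 to 0.42 with a median of -0.80 (mean -0.71 ± 0.52, SD, n = 8; limma adjusted p = 0.0275). Here too mouse 5 was the only one above 0, and without it the mean was -0.87 with a limma adjusted p of 0.00344. Leaving out any other single mouse gave means of at most -0.64 and limma adjusted p up to 0.0686. Ttr (transthyretin), a carrier of thyroid hormone that is made by α-cells and the liver, averaged 0.10 ± 0.51 (SD, n = 8), with 4 mice on either side of 0. Among 14 liver markers tested, 8 were called lower (Alb, Apoa1, Apoa2, Apoh, Ahsg, Fgb, Fgg and Itih3), with a median ratio of -1.33 over the 14. Beside this, 1.3% of all genes and 3.89% of genes detected in green but not in red were called lower. Of the called markers, Alb and Ahsg had red well above background on 5 arrays each. The others had it on 0 arrays, with red stand-ins on 4 to 8. The summed signal of the liver markers lay between 1424 and 2957 in red and between 5373 and 7956 in green, and their part in the values of Gc and Ttr was not tested.

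**Figure D2:**
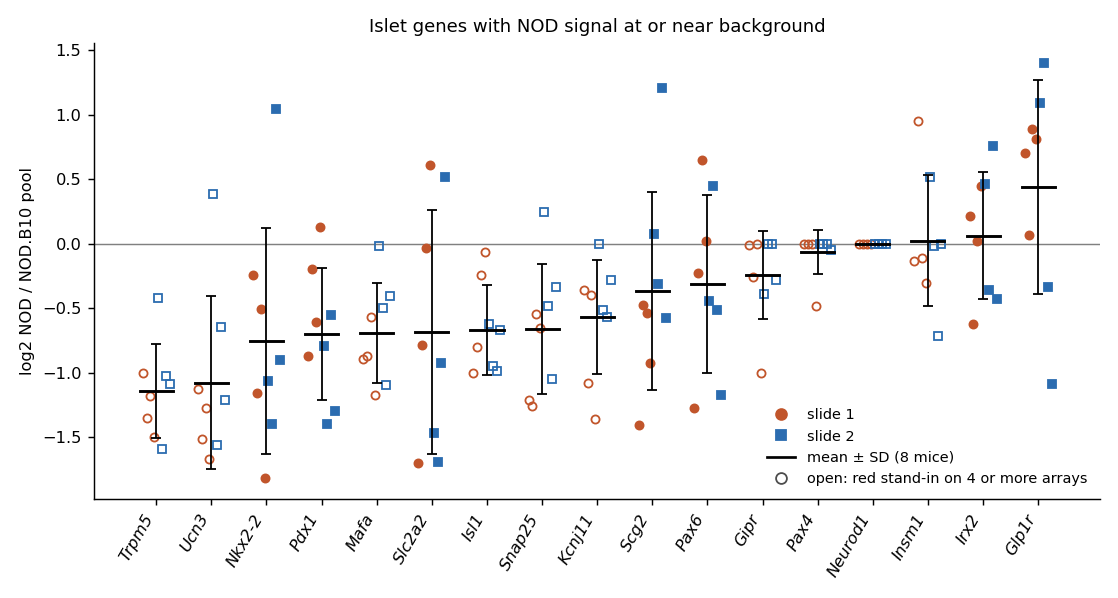
Log2 ratio of NOD to the NOD.B10 pool (vertical axis) for the 17 islet genes with NOD signal at or near background, with 1 point a mouse, circles for slide 1 and squares for slide 2, and a bar and whiskers for the mean and SD of 8 mice. Open symbols mark genes with a red stand-in on at least 4 arrays, among them Trpm5, where all 8 points lie below 0, and Neurod1, where all 8 lie at 0.

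The spread between mice was wide in the islet genes. The median SD of the ratio was 0.51 over the 16 well measured genes, beside 0.30 over the 9544 genes of the array with such signal. Across arrays, log2 red signals of the 16 genes had a median SD of 0.62, beside 0.39 over all such genes, whereas the green signals had 0.19, beside 0.21. Green varied most for Prlr and Irx1, with SDs of 0.78 and 0.65. Green was the same pool on every array, while red was a different mouse on each and the weaker signal, and the parts of these in the spread cannot be told apart.

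Mouse 1 was the lowest of the 8 mice in 10 of the 16 genes, beside 10.5% of all such genes on the array. Its median over the 16 genes was -0.94, that of mouse 2 was -0.76, and the other 6 mice lay between -0.47 and 0.00. Over the 8 well measured genes of prohormone processing and granules (Pcsk1, Pcsk2, Pcsk1n, Cpe, Scg5, Scg3, Chgb and Resp18), all 8 genes were below 0 in mouse 1 and in mouse 2, and their medians were -1.04 and -0.96. The highest median of these 8 genes was 0.14, in mouse 4. The median of all genes with such signal lay between -0.06 and -0.01 in every mouse.

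Both insulin genes were lowest in the same mice, which was not so for every hormone. Ins2, 1 of the 2 insulin genes of the mouse, was at -2.07 in mouse 1 and -1.71 in mouse 2, and between -0.60 and 0.66 in the other 6. Its partner Ins1 was at -2.34 and -1.99 in mice 1 and 2, and Gcg, which encodes glucagon, at -2.06 and -1.08. Gcg was also low in mouse 8, at -1.22, where Ins2 was at -0.01. Iapp, which encodes amylin, was at 0.14 and 0.31 in mice 1 and 2 and had its lowest values in mice 5 and 6, at -0.30 and -0.18. For Ghrl, which encodes ghrelin, mouse 1 was the highest at -0.73 and mouse 8 the lowest at -2.52. Over 8 mice the means were -0.61 for Ins1, -0.38 for Ins2, -0.70 for Gcg, -0.08 for Sst (somatostatin), 0.10 for Iapp, -0.87 for Pyy (peptide YY) and -1.02 for Ppy (pancreatic polypeptide), and none of these was called. Sst was at -1.09 in mouse 1 and above 0 in 4 mice. The median of the means of the 8 hormones was -0.65, and -0.43 without mouse 1. Ghrl averaged -1.27 ± 0.55 (SD, n = 8) and was called lower (limma adjusted p = 0.00441), beside 1.3% of all genes. Red was well above background on 2 arrays for Ppy, 4 for Iapp, 5 for Ghrl and all 8 for the other hormones.

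**Figure D3:**
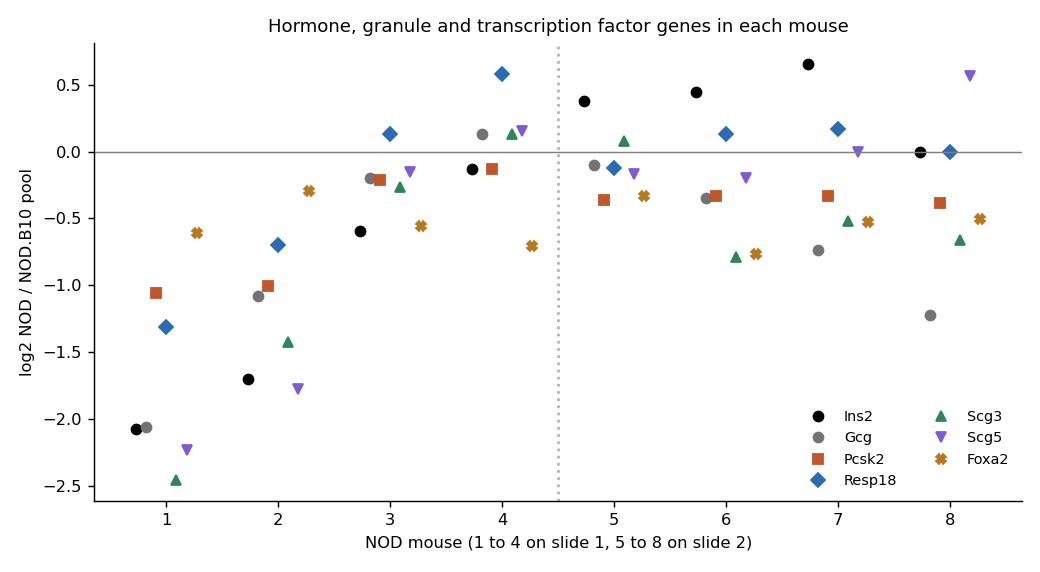
Log2 ratio of NOD to the NOD.B10 pool (vertical axis) in each of the 8 mice (horizontal axis, numbers are names and have no order) for Ins2 and Gcg, for the processing and granule genes Pcsk2, Resp18, Scg3 and Scg5, and for the transcription factor Foxa2, with 1 symbol a gene and mouse. Mice 1 and 2 are the lowest for Ins2, Scg5, Scg3, Pcsk2 and Resp18, while Foxa2 lies between -0.77 and -0.30 in all mice.

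Whether the genes varied with insulin from mouse to mouse was examined by correlation with Ins2 for the 16 well measured genes. Pearson's r was above 0 for 13 of the 16, with a median of 0.55, beside -0.04 over 9543 genes. Only Pcsk1n reached an unadjusted exact permutation p under 0.01 (r = 0.83, exact p = 0.00799; Spearman's rho = 0.90, exact p = 0.00456), beside 2.38% of all such genes. At an unadjusted exact p under 0.05, 6 of the 16 genes did so (Pcsk1, Pcsk2, Pcsk1n, Scg5, Scg3 and Resp18), beside 7.98%. After Benjamini-Hochberg adjustment over all genes with such signal, none of the 16 passed, with adjusted exact permutation p of at least 0.198.

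The slides entered this relation, since Ins2 itself was lower on slide 1, with 4 values between -2.07 and -0.13, than on slide 2, with 4 values between -0.01 and 0.66. With values centered within slide, r with Ins2 was 0.96 for Resp18 (exact permutation p within slides = 0.0226), 0.95 for Pcsk2 (exact p = 0.00347), 0.90 for Scg3 (exact p = 0.0538) and 0.83 for Tmem27 (exact p = 0.00521). In all, 8 of the 16 genes had a positive r at an unadjusted exact p under 0.05 within slides, beside 4.13% of all such genes, and none passed adjustment over all genes. Of the 6 genes related to Ins2 over all mice, Scg3, Scg5 (r = 0.85, exact p = 0.21) and Pcsk1 (r = 0.16, exact permutation p = 0.774) did not reach that level within slides. Each slide holds 4 mice, too few for a correlation of its own.

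Mice 1 and 2 were the 2 mice farthest from the median of Ins2. Both lay on slide 1, so centering within slide did not remove them. Without them, r over 6 mice was -0.60 for Pcsk2, -0.16 for Scg5, -0.30 for Scg3 and -0.26 for Resp18, so these relations rested on those 2 mice. For the genes related to Ins2 only within slides, r over these 6 mice was -0.49 for Cpe, -0.23 for Abcc8, -0.13 for Chgb, -0.10 for Tmem27 and 0.05 for Prlr. By contrast, r was 0.73 for Pcsk1n, and 0.59 for Pcsk1, whose r within slides was 0.16. With Gcg as the partner, Tmem27 (r = 0.88, exact permutation p = 0.000843), Scg3 (r = 0.91, exact p = 0.00233), Resp18 (r = 0.85, exact p = 0.00928) and Pcsk2 (r = 0.82, exact p = 0.00866) reached an unadjusted exact p under 0.01, beside 0.346% of all such genes. These values with Gcg were taken over all 8 mice without centering within slide, and Gcg was lowest in mouse 1, at -2.06. For the transcription factors, r against Ins2 was -0.22 for Foxa2 (exact permutation p = 0.618), -0.55 for Nkx6-1 (exact p = 0.151) and 0.57 for Irx1 (exact p = 0.152).

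**Figure D4:**
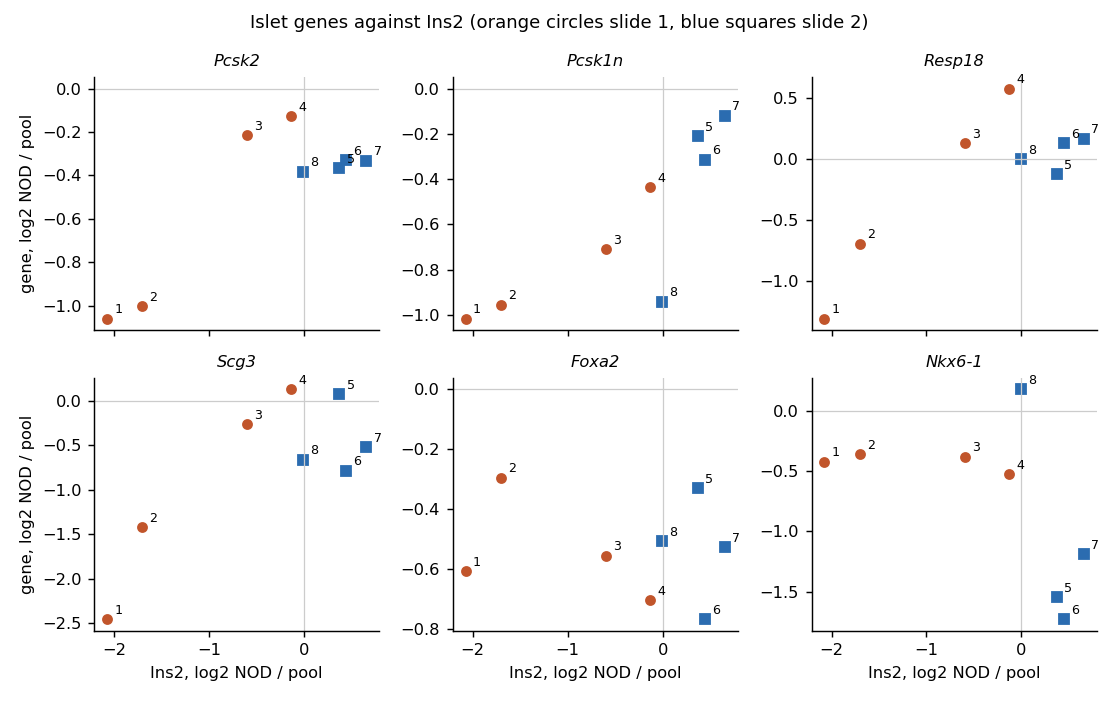
Log2 ratio of 6 islet genes (vertical axes) against that of Ins2 (horizontal axes), with 1 numbered point a mouse, orange circles for slide 1 and blue squares for slide 2. Mice 1 and 2 lie at the lower left for Pcsk2, Pcsk1n, Resp18 and Scg3, and not for Foxa2 and Nkx6-1.

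Other genes of the same pathways were read from lists chosen by function. Of 30 further secretion genes, 28 had a probe and 25 were tested. Of these 25, 1 was called lower and 0 higher, beside the background given above, and the median ratio was -0.15, or -0.20 to -0.08 with 1 mouse left out. At an unadjusted p under 0.05 in limma, 9 were lower and 2 higher, beside 25.1% and 10.9% of all genes. The called gene was Ptprn, the granule membrane protein IA-2 and an autoantigen in type 1 diabetes, at -1.09 ± 0.55 (SD, n = 8; limma adjusted p = 0.00766), with red well above background on 1 array. Among genes of this list with well measured red signal, the lowest were Sytl4 (granuphilin) at -0.92 and Syt13 at -0.65, and the highest was Exph5 at 0.34. Chga (chromogranin A), the precursor of several islet peptides, averaged -0.64 ± 0.53 (SD, n = 8) and was below 0 in all 8 mice (limma adjusted p = 0.0439).

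Of 17 further islet transcription factors, 14 had a probe and 12 were tested, with 0 called by limma and a median of -0.14, or -0.15 to -0.08 with 1 mouse left out. At an unadjusted p under 0.05, 2 were lower and 3 higher, beside the same 25.1% and 10.9%. Hnf4a, a nuclear receptor of endodermal cells, averaged 0.73 ± 0.29 (SD, n = 8), was above 0 in all 8 mice and passed the adjusted p without reaching 2-fold (limma adjusted p = 0.00327). Hhex, the δ-cell factor, was second highest among those with well measured red signal, at 0.37, and the lowest was Tcf7l2 at -0.30.

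Markers of other cells of the pancreas were read in the same way. The 16 leukocyte markers had a median ratio of 0.98, and 13 of them had a mean above 0. Limma called 0 of the 16, with 10 higher at an unadjusted p under 0.05, beside 10.9% of all genes. They had a summed signal between 6516 and 26476 in red and between 4902 and 11414 in green. Their median was 0.22 in mouse 1 and 0.56 in mouse 2, the mice with the lowest granule genes, and it ranged from -0.01 in mouse 5 to 1.92 in mouse 4 over the 8 mice. The 12 acinar markers had a median of 0.06, with mouse 1 at -0.02 and mouse 2 at 0.01. Duct markers (8 genes) had a median of -0.09 and neuron and glia markers (12 genes tested) -0.08. Of the latter, Th, Prph, Nefl and Nefm were well above background on 0 arrays in either dye. Elavl4 was called lower, beside 1.3% of all genes, at a ratio of -1.22 that rests on red stand-ins on all 8 arrays. Adipocyte markers (8 genes) had a median of -0.79, and of -0.44 without mouse 4, whose own median was -2.76. The part of these cells in the islet values was not tested.

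By position, 9 of the 33 genes lay on chromosome 2 (Nkx2-2, Neurod1, Pax6, Insm1, Foxa2, Pcsk2, Scg5, Chgb and Snap25), which is 27.3% of the set beside 8.27% of the genes of the array with a position. On the build of the files (mm8), the Foxa2 probe lay at chr2:147734403-147734462, the Pcsk2 probe at chr2:143505354-143505413, the Chgb probe at chr2:132486408-132486467 and the Irx1 probe at chr13:72424225-72424264. Of the chromosome 2 genes, the 4 that were well measured had means of -0.54 (Foxa2), -0.48 (Pcsk2), -0.48 (Scg5) and -0.17 (Chgb).

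**Figure D5:**
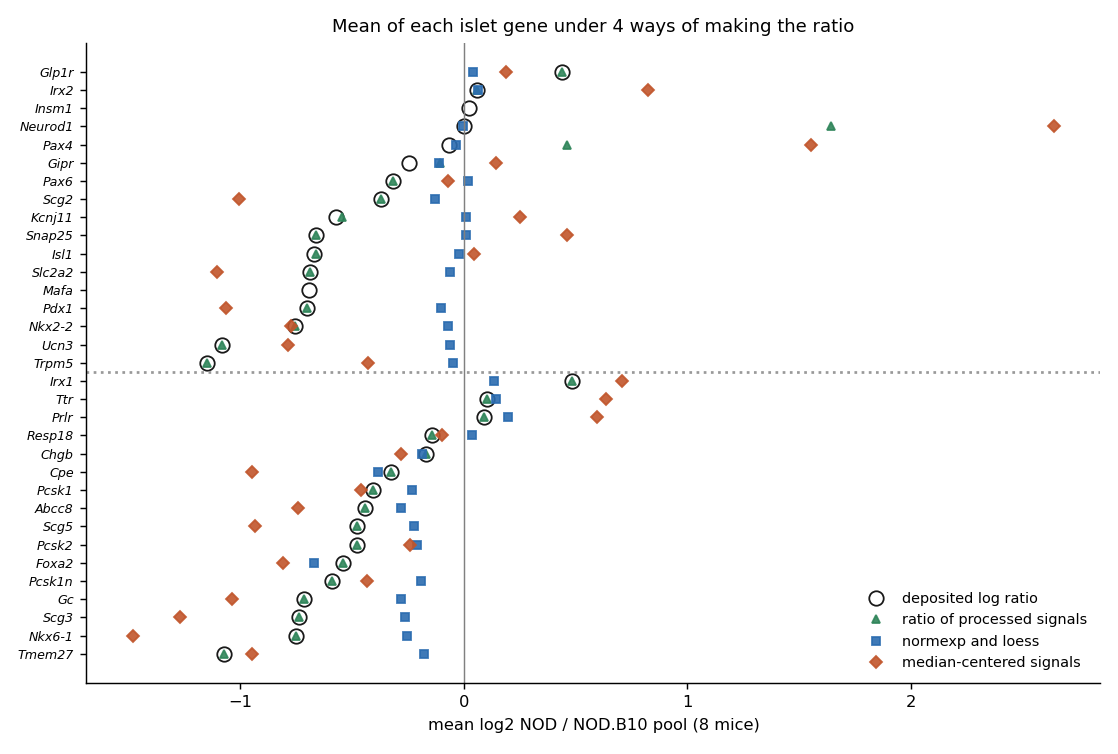
Mean log2 ratio over 8 mice (horizontal axis) of each islet gene (rows, well measured genes below the dotted line and weaker genes above it) from the deposited log ratio (open circles), the ratio of processed signals (triangles), normexp correction with loess (squares) and median-centered signals (diamonds). The well measured genes other than Resp18 keep their side of 0 in all 4, while Neurod1 and Pax4 move from 0 and -0.07 to 2.64 and 1.55 after median centering.

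The values depended on how the ratio was made. The median of the 16 genes was -0.46 from the deposited ratios, -0.60 after median centering and -0.22 after normexp correction with loess, beside medians of -0.06, -0.15 and -0.03 over all genes with such signal. Without mice 1 and 2 it was -0.27. After normexp correction, the 13 tested genes seen in green but not in red had means between -0.13 and 0.07, for example Trpm5 at -0.048, Ucn3 at -0.06 and Pdx1 at -0.10.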

How the data were processed

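Whole-pancreas RNA of 8 NOD mice was measured on 8 2-color arrays, each against 1 pool of 8 NOD.B10 mice. The authors used Agilent Feature Extraction 10.7.3.1, with probe positions on mm8 (NCBI36). Per spot, the deposited files give a log10 ratio (red to green) made by the authors' software. They also give a processed intensity of each dye, from which the authors' software had removed background, spatial trend and dye bias, and flags that mark stand-ins and signals well above background. Precision is limited by the 8 arrays, and 3 arrays had a grid not rated good.

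Log10 ratios were converted to log2 and the spots of a probe were averaged. The 28105 probes that had a symbol and reached 25 in processed red on 4 or more arrays were fitted with limma 3.58.1 (R 4.3.3) in a one-sample moderated test, with Benjamini-Hochberg adjustment over all of them. Calls need 2-fold and an adjusted p under 0.01. Well measured means red well above background on at least 4 arrays. Exact tests used all 256 sign flips, 70 splits of the mice by slide, 40320 pairings, and 576 pairings within slides (Python 3.11.15, numpy 2.4.6, pandas 2.3.3, scipy 1.17.1, matplotlib 3.10.9). Correlations were adjusted over all well measured genes and not, as had been planned, over the set alone.

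Background shares count 1 probe a gene. Alternatives were the plain statistic, other filters, irregular spots left out, the ratio of processed signals, background-subtracted signals centered on the median, normexp correction (offset 50) with loess, a slide term, other thresholds, other probes, and each mouse left out. All 33 genes were named, with the hormones, the called genes of 10 other lists and the 2 highest and 2 lowest well measured genes of the 2 further islet lists. Of these, 2 genes are not reported here. Marker lists of other cells were otherwise given by counts. The 33 genes and the lists were chosen with earlier results of these data known. Code was tested on simulated data.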

Additional observations from a re-analysis of the deposited data

Results flagged for a closer look

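In a group of 8 mice, a value was picked out when its gap to the nearest other mouse as a share of the whole range exceeded Dixon's 95% critical value. Chance picks about 1 in 20 groups, and 41 genes were examined, namely the 33 islet genes and 8 hormones. Mouse 4 was picked 3 times. It was high for Abcc8, at 1.67 with the other mice between -1.86 and -0.32. It was low for Gipr, at -1.003 with the others between -0.39 and 0.00, and low for Pax4, at -0.48 with the others between -0.05 and 0.00. Gipr had red stand-ins on 7 arrays and Pax4 on 8.

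Mouse 8 was low for Prlr, at -1.45 against 0.06 to 0.78 in the other 7, and low for Ghrl, at -2.52 against -1.48 to -0.73. Mouse 5 was high for Gc, at 0.42 against -1.22 to -0.49. Mouse 1 was low for Pyy, at -2.05 against -1.03 to -0.15. No cause of these values was tested.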

How the results depend on the processing

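No paired analysis was possible because the arrays form 1 group and the mouse numbers pair no samples. Median centering moved the median ratio of all probes tested by 0.16 and normexp correction by 0.08. Over all probes, 87 were called higher and 397 lower. Other processing gave 5780 and 1307 after median centering, 3470 and 690 from processed signals, 45 and 17 after normexp correction, 301 and 808 at 1.5-fold, 158 and 761 at an adjusted p under 0.05, and 19 and 75 without mice 1 and 2 together (chosen after their values were seen). Fewer were called lower with the plain statistic (243) and among probes with red well above background (42), where fewer probes were tested. Leaving out 1 mouse gave 49 to 76 higher and 189 to 270 lower.

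Of the islet genes, 1 was called lower (Trpm5) and 0 higher. The number lower was 5 after median centering (Pdx1, Nkx6-1, Scg2, Scg3 and Gc, with 2 higher, Neurod1 and Pax4), 3 from processed signals (Trpm5, Tmem27 and Ucn3, with 1 higher, Neurod1), 3 at an adjusted p under 0.05 (Trpm5, Tmem27 and Ucn3), 2 at 1.5-fold (Trpm5 and Isl1), and 0 after normexp correction or without mice 1 and 2. Without 1 mouse it was 1 to 2, the second gene being Ucn3 when mouse 5 was left out. Trpm5 was at -0.048 after normexp correction (limma adjusted p = 0.408). Without mice 1 and 2 it was at -1.13 (limma adjusted p = 0.0193). Neurod1 and Pax4 had red stand-ins on all 8 arrays.

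Single genes crossed 0 as follows. After median centering, Isl1 was at 0.047, Pax4 at 1.55, Kcnj11 at 0.25, Gipr at 0.14 and Snap25 at 0.46. After normexp correction, Pax6 was at 0.019, Kcnj11 at 0.0102, Resp18 at 0.039 and Snap25 at 0.012. From processed signals, Pax4 was at 0.46. With another probe, Pax6 was at 0.43, Slc2a2 at 0.025, Abcc8 at 0.01004, Gipr at 0.65, Prlr at -0.89 and -0.73, Pcsk1n at 0.0082 and Snap25 at 0.10, and with the median over probes Irx2 was at -0.0384 and Prlr at -0.62. Without mice 1 and 2, Scg5 was at 0.033 and Resp18 at 0.15. Leaving out 1 mouse gave -0.0381 to 0.16 for Irx2, -0.0076 to 0.31 for Prlr, -0.24 to 0.027 for Resp18 and -0.0039 to 0.22 for Ttr. Of all values of single genes, 249 of 296 under other processing, and 235 of 248 with 1 mouse left out, kept their direction and their side of the adjusted p of 0.01. The median of the 16 well measured genes stayed below 0 in all alternatives, from -0.60 to -0.22, and from -0.52 to -0.31 with 1 mouse left out.

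The number of islet genes correlated with Ins2 at an unadjusted exact permutation p under 0.01 was 1. It was 4 with Gcg as the partner, 3 centered within slide, 5 after median centering, 0 after normexp correction and 0 to 1 with 1 mouse left out. The number whose slides did not overlap was 1, and it was 3 after normexp correction and 2 after median centering. The causes of these shifts were not tested. Weak red signal limits 17 of the 33 genes.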
